A study of Petromyzon marinus with 6 samples.

Results

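Sea lamprey (Petromyzon marinus) whole embryos collected 5 days after fertilization were compared with whole embryos collected 4 days after fertilization. The lamprey is a jawless vertebrate, and the pair forms the last interval of a developmental series of 6 RNA-seq libraries. The libraries of days 1, 2, 2.5 and 3 served to place each transcript in time. Every library was made from total RNA of embryos frozen and extracted with Trizol, and the labels name no treatment, strain or genotype. Each day had 1 library, so no difference has a replicate check and no test was made. Without replicates, intervals cover counting error only. Sequenced fragments without molecular identifiers are not independent molecules, so the intervals may be too narrow even for that. No source used here gives the rearing temperature, the number of embryos pooled or their parents.

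Early vertebrate embryos run at first on RNA that the mother stored in the egg, which is degraded while the embryo's own genome takes over transcription. Sea lamprey embryos also eliminate part of their germline DNA from the cells of the body during early development. In whole embryos, a transcript made by fewer cells and one made at a lower level per cell cannot be told apart.

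The features measured were contigs, which are transcript sequences assembled from reads, and components, which are groups of contigs sharing a component number in their names. A component can hold splice forms, alleles or close copies, and the counts of its contigs were summed. None of the 145913 contig identifiers matched the reference gene table (0 matches), so transcripts are described without gene names and the stage labels were not checked against marker genes. Of 87262 components, 31146 had 60 or more counts over the 6 libraries and were compared, as were 47525 contigs. Total expected counts were 15503476 at day 5 and 19845393 at day 4, of which the compared components held 99.1% and 99.0%. Levels are given as CPM, counts scaled to library totals adjusted by the TMM method, and are not divided by transcript length.

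Slightly fewer components were detected at day 5 than at day 4. At least 1 count was found for 64169 components at day 5. The day 4 library had 67508, and 65346 would remain on average if its counts were drawn down to the day 5 total. At that equal depth the difference was -1177 components, or -1.80%. With 3 or more counts required, 46576 were detected at day 5 and 49030 would be at day 4, a difference of -5.01%.

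Most transcripts kept a similar level over this interval, and a small number differed steeply. Of the 31146 compared components, 25466 lay within 2-fold of their day 4 level at day 5, on the log2(CPM + 0.5) scale. Every distance given below as within 2-fold uses that scale, on which the added 0.5 draws scarce components together. A component was called when its fold on the log2(CPM + 0.5) scale reached 4-fold and its ratio had a 95% counting interval (exact, Clopper-Pearson) that excluded 1. By this rule 410 components were higher at day 5 (1.32%) and 263 were lower (0.844%), together 673 (2.16%). Log2 folds of the components not called ran from -1.997 to 1.9999. The interval thus removed no component at this limit, and the calls rest on the fold alone. A 2-fold limit gave 2891 higher (9.28%) and 2789 lower (8.95%). An 8-fold limit gave 161 higher (0.517%) and 29 lower (0.0931%). Higher components thus outnumbered lower ones mainly among the steepest differences. Just inside the 4-fold limit lay a component with 54 counts at day 5 and 10 at day 4, and just outside it one with 27 counts at day 5 and 2 at day 4.

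The called components carried a minor share of the RNA counted. Those called higher held 0.915% of all counts at day 5 and 0.0780% at day 4. Those called lower held 0.0856% at day 5 and 0.496% at day 4. The 30473 components called in neither direction held 98.1% at day 5 and 98.5% at day 4.

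**Figure D1:**
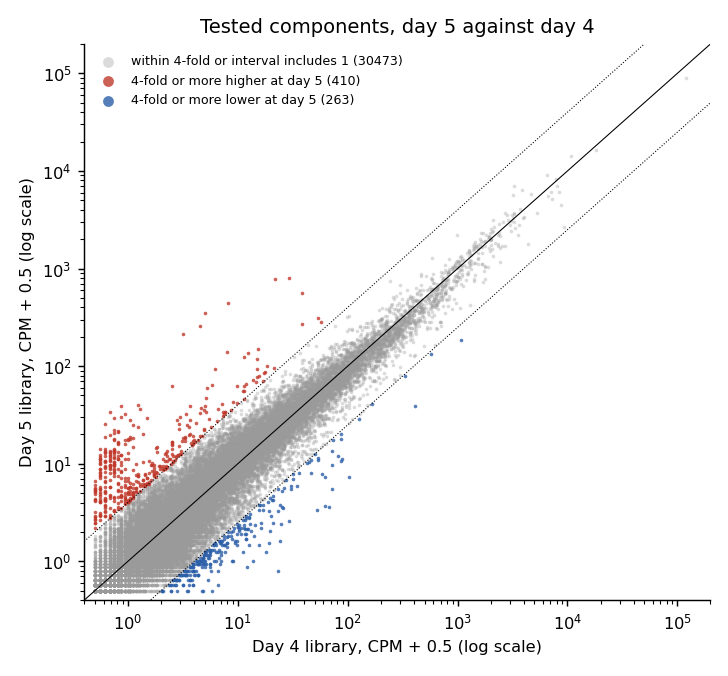
Level of each compared component at day 5 (vertical) and at day 4 (horizontal), as CPM + 0.5 on log axes, with lines for equality and for 4-fold. The 410 components called higher and the 263 called lower lie beyond the 4-fold lines, and few of them are among the most abundant.

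At the 4-fold limit, calls were most frequent at middle abundance. Among the 3723 components averaging 5 to 10 CPM over the compared days, 109 were higher and 48 lower, or 4.22% in all. At 1 to 5 CPM the share was 3.19%. Differences of 2-fold or more were instead most frequent at 1 to 5 CPM, at 26.2%, against 22.6% at 5 to 10 CPM. Among the 1756 components averaging 100 CPM or more, 10 were higher and 5 lower, or 0.854%. Folds in that abundant class had an interquartile range of -0.41 to 0.15 on the log2 scale. Below 1 CPM, 3 of 7044 components were called higher and 7 lower. At such levels the pseudocount of 0.5 CPM itself keeps most components from reaching 4-fold.

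The abundant components that took up or gave up the most counts stayed under 4-fold. The most abundant one of all had 89135 CPM at day 5 and 118772 CPM at day 4, a ratio of 0.750. A component of 4 contigs made the largest gain in CPM, with 6994 CPM at day 5 and 3270 CPM at day 4. Its counts over the 6 days, in order from day 1, were 21, 60, 99, 11447, 53127 and 94787. Its level was higher in each library than in the one before, with the steepest step from 4.47 CPM at day 2.5 to 629 CPM at day 3. The gain was 2.14-fold, with a counting interval of 2.12 to 2.16. A single contig of 1307 nt moved the other way, with 2667 CPM at day 5 and 9280 CPM at day 4, a ratio of 0.287. Its counts over the days, in order, were 40161, 57827, 73924, 72145, 150747 and 36150. Its CPM was higher in each library up to day 4 and then lower.

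The 410 components called higher at day 5 had mostly their highest level there. Their median CPM over the days, in order, was 0.198, 0.296, 0.633, 1.32, 0.492 and 9.08. The median at day 4 thus stood below that of day 3. The highest of the 6 levels was at day 5 in 335, at day 1 in 48, at day 2.5 in 15, at day 2 in 11 and at day 3 in 1. Over all 31146 compared components it was at day 5 in 6489. The call itself favours a maximum at day 5 and excludes one at day 4. In 74 of them the day 1 level was within 2-fold of the day 5 level, against 12149 of all 31146 compared components. The longest contig had a median of 1234 nt, against 1292 nt over all compared components.

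The 263 components called lower at day 5 were spread more widely in time. Their median CPM over the days, in order, was 0.0793, 1.58, 1.45, 3.62, 6.28 and 0.738. The highest level was at day 4 in 146, at day 3 in 60, at day 2.5 in 27, at day 2 in 20 and at day 1 in 10. Over all 31146 compared components it was at day 4 in 5955. The call itself favours a maximum at day 4 and excludes one at day 5. Fewer than 3 counts were found at day 1 in 136 of them, so 51.7% were not clearly counted in the earliest embryos. The share was 46.3% among those called higher and 18.8% over all compared components. At day 5, 37 had fewer than 3 counts, or 14.1%, against 6.39% of all compared components. The call itself required a low day 5 level, so no conclusion is drawn from that contrast. In 108 the day 5 level lay within 2-fold of the day 1 level on the log2(CPM + 0.5) scale, which draws scarce components together. The same held for 12149 of all 31146 compared components. Among all of the 263 that were counted at day 5, CPM at day 1 was a median 9.63% of that at day 5 (interquartile range 0% to 72.5%). This ratio was not taken for the 108 alone, and they are not read as back at their day 1 level.

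**Figure D2:**
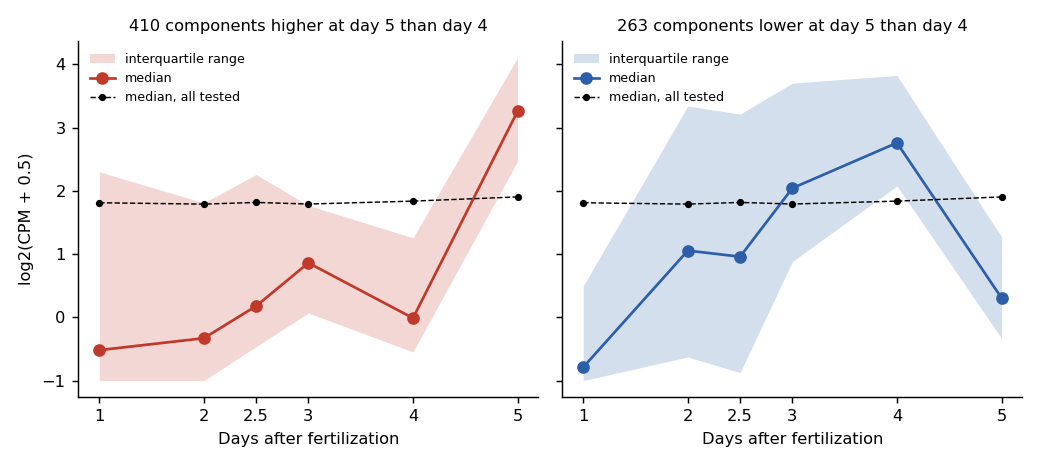
Median and interquartile range of the level, as log2(CPM + 0.5), over the 6 days for the 410 components called higher at day 5 (left) and the 263 called lower (right), with the median of all 31146 compared components for scale. The left median dips at day 4 before day 5, and the right median climbs to day 4 and is low at day 5.

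Few transcripts started at day 5. Only 2 of the 31146 compared components had fewer than 3 counts in each of the 5 earlier libraries. The better counted, a single contig of 1713 nt, had 0, 0, 0, 1, 0 and 68 counts over the days. The counting interval of its ratio began at 21.5 and had no upper limit. The other, of 2 contigs up to 1784 nt, had 0, 0, 0, 1, 1 and 60 counts. Its ratio was 71.9, with an interval of 12.4 to 2887. Both sit close to the 60-count limit for being compared, so the limit itself shapes this class. Allowing up to 9 counts in each earlier library gave 40 components, and requiring 30 total counts gave 14. No component had 0 counts in all earlier libraries (0 of 31146).

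A wider class was scarce up to day 3 and could be counted at day 4 as well as at day 5. The limit on total counts is easier to reach over both days than at day 5 alone. The size of this class is thus not set against that of the components starting at day 5. Fewer than 3 counts in every library up to day 3 were found for 71 components, with a median of 46 counts at day 5 and 40 at day 4. Of these, 47 lay within 2-fold between the days and 9 were called higher at day 5, a call made for 1.32% of all compared components. Another 7 were more than 2-fold lower at day 5, with log2 folds down to -2.50. The 71 passed the limit on total counts mainly through days 4 and 5, so no conclusion is drawn from that contrast. The best counted of the 9 had 126 counts at day 5 and 20 at day 4, a ratio of 7.55 (4.69 to 12.8). Outside these 71, a single contig of 1612 nt had 4, 2, 0, 2, 121 and 1878 counts over the days. It had 139 CPM at day 5 and 7.45 CPM at day 4, a ratio of 18.6 (15.5 to 22.5). A component of 2 contigs up to 1667 nt had 8, 2, 4, 4, 77 and 806 counts, a ratio of 12.5 (9.92 to 16.1). Both had a few counts from day 1 on, and both held at least 90% of their summed CPM at day 5.

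Most of the differences of 8-fold or more upward came from components whose level was lower at day 4 than at day 3. They were picked after their values were seen, as called higher at day 5, with fewer than 3 counts at each of days 1 and 2 and a day 3 level at least 2 times that of day 4. There were 130 of them, with median counts over the days of 0, 0, 5, 28, 3 and 134. They made up 119 of the 161 components that were 8-fold higher at day 5. Their counts summed to 19886 at day 5 and 477 at day 4, and to 3973 at day 3. At day 3, 2 of the 130 had fewer than 3 counts, and 1 of these is the contig of 1713 nt described above as starting at day 5.

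The levels at days 3, 4 and 5 helped to choose the 130, so their proportions are a description. The day 3 level was a median 14.4% of the day 5 level, with an interquartile range of 11.8% to 17.6%, and in 124 of them it lay between 5% and 30%. The day 4 level was 1.78% of the day 5 level (0.973% to 2.71%), and the day 2.5 level was 2.10% (1.26% to 2.94%). Their longest contigs had a median of 851 nt, against 1292 nt over all compared components. Single contigs made up 113 of the 130, against 17742 of the 31146. The 130 were chosen to be scarce in the earliest libraries and passed the limit on total counts mainly through day 5. They were not matched to other components on counts, so no conclusion is drawn from these contrasts in length and contig number. At day 4, 55 of them had fewer than 3 counts. All 26 components that had at least 100 counts at day 5 but were below 3 at day 4 belonged here. The best counted, of 27 contigs, had 1, 1, 14, 118, 33 and 843 counts over the days. What sets the level of these components in each library was not tested.

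On the log2(CPM + 0.5) scale, the largest fold belonged to a more abundant component that was also low at day 4, whose leading contig is lcl|comp291649_c5_seq2 (820 nt). Its counts over the days were 678, 512, 643, 2530, 74 and 4746. The level was 350 CPM at day 5 and 4.56 CPM at day 4, and 26.9 CPM at day 1. Day 4 was thus the lowest of the 6 libraries. The log2 fold was 6.12, and the ratio of CPM was 76.9 (61.1 to 98.1). Some scarcer components had larger ratios of CPM, such as 203 (55.6 to 1680) for one with 338 counts at day 5 and 2 at day 4.

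The same assembler number stands in the names of 12 compared components, of which 4 had this profile and 8 did not. The 4 summed over the days to 2939, 2160, 3125, 9958, 306 and 17077 counts, with log2 folds of 5.76 to 6.12. The other 8 summed to 4870, 4058, 4819, 3584, 2541 and 1891 counts, with log2 folds of -0.57 to 0.49. Whether these components share sequence was not tested. The set was picked after its values were seen.

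**Figure D3:**
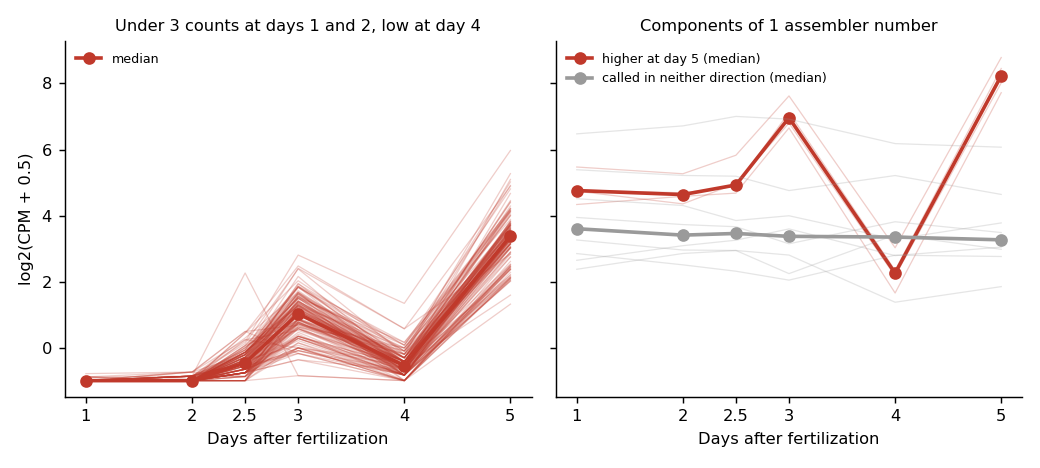
Level over the 6 days as log2(CPM + 0.5), with a thin line for each component and thick lines for medians. Left, the 130 components scarce at day 4; right, the 12 components of 1 assembler number, of which 4 drop at day 4 and are higher at day 5 while 8 were called in neither direction.

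The largest gain in CPM among called components was that of lcl|comp264724_c1_seq1, a single contig of 1064 nt. Its counts over the days were 1092, 949, 1118, 6528, 463 and 10817. It had 798 CPM at day 5 and 28.5 CPM at day 4, a log2 fold of 4.78 and a ratio of 28.0 (25.5 to 30.8). A single contig of 814 nt came next, with 774 CPM at day 5 and 21.3 CPM at day 4, and a component of 9 contigs had 558 CPM at day 5 and 37.5 CPM at day 4. In all 3 the day 3 level was also above that of day 4.

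Other gains had no such low at day 4. A component of 2 contigs up to 976 nt had 30, 33, 25, 230, 913 and 3791 counts over the days. It had 280 CPM at day 5 and 56.2 CPM at day 4, a ratio of 4.98 (4.63 to 5.36). From day 2.5 on it was higher in each library. A component of 3 contigs up to 3360 nt was counted throughout, with 411, 191, 336, 290, 617 and 3689 counts. It had 272 CPM at day 5 and 38.0 CPM at day 4, a ratio of 7.17 (6.58 to 7.82).

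Some components low at day 4 stood at their day 1 level again at day 5. At day 4, 4455 components were called lower than at day 1 (14.3%). Of these, 84 were called higher at day 5 than in the day 4 library, a call made for 1.32% of all compared components, and 47 of the 84 came within 2-fold of day 1. Of the remaining 37, 32 stayed more than 2-fold below day 1 and 5 were more than 2-fold above it. Both comparisons use the day 4 library, so these counts rest on it. The 47 had a median CPM over the days of 10.4, 5.43, 5.47, 2.14, 0.923 and 8.04. In 28 of them day 3 was within 2-fold of day 4, so in these a level near that of day 4 was seen at day 3 too. That was so for 22426 of all 31146 compared components. Among those of the 47 counted at day 4, the day 3 level was a median 189% of the day 4 level. In 6 of the 47 day 3 was called above day 4.

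The longest contigs of the 47 had a median of 1787 nt, against 1610 nt for the other 37 and 1292 nt over all compared components. The 47 had a median of 261 counts at day 1, against 76 over all compared components. They were not matched on counts, so no conclusion is drawn from these lengths. The best counted of the 47, a single contig of 3266 nt, had 3121, 2584, 1668, 735, 280 and 1160 counts over the days. It had 85.6 CPM at day 5 and 17.2 CPM at day 4, a ratio of 4.97 (4.35 to 5.68). Its level was 124 CPM at day 1 and 128 CPM at day 2, then lower in each library up to day 4 and higher again at day 5. A component with a contig of 13475 nt had 1089, 497, 383, 91, 98 and 491 counts, so it was as scarce at day 3 as at day 4. In a component of 3 contigs up to 3445 nt the low was at day 4 alone, with 581, 140, 180, 307, 12 and 316 counts. Its ratio was 31.6 (17.8 to 61.7).

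A set of transcripts was high at day 4 and lower on either side. At day 4, 820 components were called higher than at day 3 (2.63%), and 59 of these were called lower at day 5, a call made for 0.844% of all compared components. Both comparisons again use the day 4 library. All 59 had their highest level at day 4, and 50 were within 2-fold of their day 3 level at day 5. The same held for 19648 of all 31146 compared components. The 59 were chosen to be low on both days, with a median CPM of 0.879 at day 3 and 1.33 at day 5. At such levels the pseudocount draws values together, so the 50 are not read as a return to the day 3 level. The median counts of the 59 over the days were 1, 3, 0, 16, 174 and 18. The day 5 level was a median 11.8% of the day 4 level (interquartile range 7.04% to 14.4%), and the day 3 level was 8.20% of it (4.62% to 13.3%). Leaving out these 59 and the 130 components scarce at day 4, 280 components were higher and 204 lower at day 5.

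**Figure D4:**
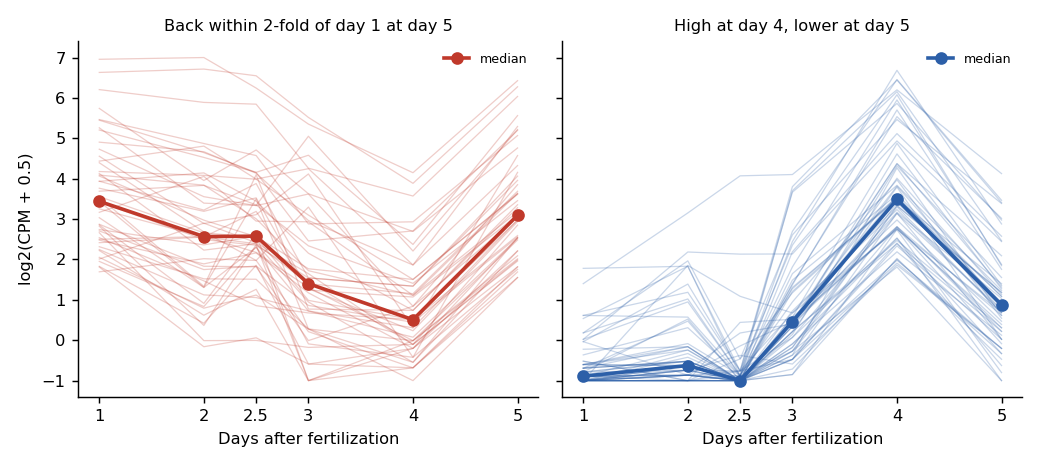
Level over the 6 days as log2(CPM + 0.5), with a thin line for each component and a thick line for the median. Left, the 47 components low at day 4 and within 2-fold of day 1 at day 5; right, the 59 components with a peak at day 4.

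The 59 were scarce in the early libraries. They passed the 60-count limit mainly through day 4 and were chosen to be lower at day 3, so their shares are not set against those of better counted components. Fewer than 3 counts were found in 57.6% of them at day 1, in 44.1% at day 2 and in 84.7% at day 2.5. A day 2 count of at least 3 was found in 33, and 29 of the 33 were below 3 at day 2.5. The best counted, a contig of 5494 nt, had 13, 29, 1, 90, 1662 and 93 counts over the days. A contig of 8357 nt with the same assembler number had 26, 20, 1, 109, 1418 and 143 counts. A component of 22 contigs was an exception at day 2.5, with 54, 170, 361, 304, 1187 and 230 counts. Single contigs made up 49 of the 59. What sets the level of these components at days 2.5 and 4 was not tested.

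The largest loss in CPM among called components was that of lcl|comp293953_c1_seq2, a single contig of 2324 nt abundant from day 1. Its counts over the days were 31990, 47617, 29990, 48253, 17361 and 2485. It had 183 CPM at day 5 and 1069 CPM at day 4, a log2 fold of -2.54 and a ratio of 0.172 (0.164 to 0.179). A component of 2 contigs up to 1069 nt had 5309, 12418, 5005, 16696, 6648 and 518 counts, with 38.2 CPM at day 5 and 409 CPM at day 4. Both were highest at day 3 and already lower at day 4.

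On the log2(CPM + 0.5) scale, the lowest fold was that of lcl|comp90884_c0_seq1, a single contig of 2613 nt counted mainly at days 3 and 4. Its counts over the days were 1, 2, 1, 186, 370 and 4. It had 0.295 CPM at day 5 and 22.8 CPM at day 4, a log2 fold of -4.87, and the ratio of day 4 over day 5 was 77.2 (29.9 to 285). A contig of 716 nt had a similar window, with 0, 0, 0, 229, 187 and 5 counts. A contig of 524 nt had begun earlier, with 5, 503, 1176, 1583, 384 and 15 counts. Loss to below 3 counts from 100 or more at day 4 was seen in 1 component.

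Counted by contig, differences were more frequent and no longer mostly upward. Of 47525 contigs, 1921 were higher at day 5 (4.04%) and 2029 lower (4.27%), together 3950 (8.31%). At 8-fold, 840 were higher (1.77%) and 767 lower (1.61%). For 3251 of the 3950 called contigs, or 82.3%, the component as a whole was not called, and for 694 it was called the same way. In 437 components at least 1 contig was higher and another lower. Multi-contig components held 89.3% of called contigs and 62.7% of all compared contigs. Counts of contigs that share sequence are estimated by dividing reads among them, so a switch between splice forms and a changed division cannot be told apart.

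The balance between gains and losses depended on the scaling. With TMM, 60.9% of the 673 called components were higher at day 5 and the median log2 fold of all compared components was -0.00070. With DESeq2 size factors 361 were higher and 368 lower, or 49.5% higher, with a median of -0.11. With library totals 418 were higher and 181 lower, or 69.8% higher, with a median of 0.07. With the deposited TPM the share was 58.0%. TPM called 515 higher and 373 lower. Of the 410 higher with TMM, 361 were also higher with DESeq2 size factors, 399 with library totals and 382 with TPM. Of the 263 lower, 263, 181 and 230 were also lower with the same scalings. DESeq2 size factors and library totals shift all folds nearly alike, so their overlap with TMM follows from their construction.

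**Figure D5:**
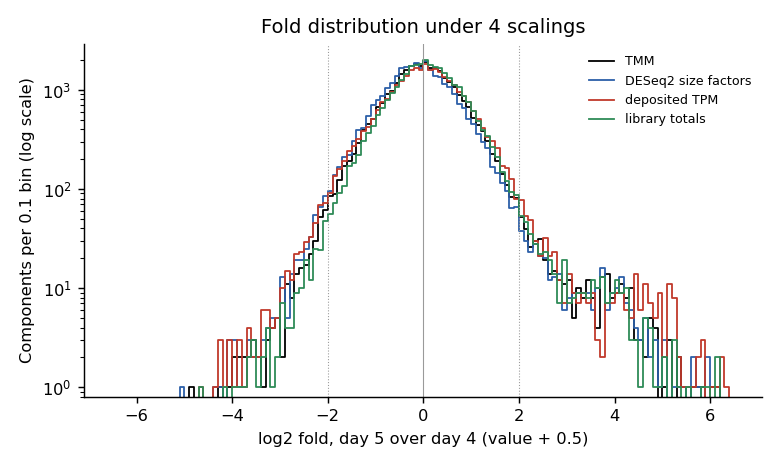
Number of compared components in each 0.1-wide bin of the log2 fold of day 5 over day 4 (vertical log axis) under 4 scalings, with dotted lines at 4-fold. The medians lie between -0.11 for DESeq2 size factors and 0.07 for library totals, and the TPM curve has more components in both tails than the TMM curve.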

How the data were processed

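RSEM is the tool listed by the submitters' processing notes, with no version; the aligner, assembler and their settings were not given in the sources used. Each library came with an expected count, a TPM, an FPKM and 2 lengths for every contig, per the file headers. The deposited expected counts are estimated counts with no normalization. TPM, per the file headers, was deposited alongside and used as a further scaling, and the deposited FPKM was left unused.

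Expected counts were rounded to whole numbers, summed by component (contig identifier without its sequence number) and filtered at 60 over the 6 libraries. Totals ran from 15503476 (day 5) to 21910119 (day 1). TMM factors for components came from edgeR 4.0.16 and were 0.874 at day 5 and 0.819 at day 4. The pseudocount of 0.5 CPM understates folds of scarce components. The call rule was run on simulated counts with known folds and counting error only. That run cannot show how calls behave under variation between embryos or libraries. Other settings were DESeq2 1.42.0 size factors, TPM, library totals, and changed filters, pseudocounts and fold limits. Members, sets and rules were chosen with earlier results of these data known. Contigs are named for the largest fold and the largest CPM difference in each direction among called components with at least 100 counts; the others described were chosen after their values were seen. Software comprised R 4.3.3 and Python 3.11.15 with scipy 1.17.1.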

Additional observations from a re-analysis of the deposited data

How the results depend on the processing

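No paired analysis was possible because each day had 1 library, and no library could be left out of a comparison of 2. The causes of the differences below were not tested beyond what each setting does by construction. The share of called components higher at day 5, 60.9%, was 49.5% with DESeq2 size factors, 69.8% with library totals, 65.0% with no filter, 75.9% with a pseudocount of 5 and 84.7% at 8-fold. For contigs it was 48.6%, against 43.7%, 52.2%, 51.4% (no filter) and 52.3% (8-fold). A pseudocount of 5, which shrinks low folds, left 66 components higher and 21 lower, and 198 contigs each way; 8-fold left 161 and 29 components, and 840 and 767 contigs. Components starting at day 5, 2 in all, became 40 with up to 9 earlier counts, 0 with none, 14 from 30 total counts and 50 by contig. Those falling back numbered 59. Counting contigs gave 478, an 8-fold limit gave 11, and raising the pseudocount to 5 gave 10. Dropping the required fold over day 3 gave 146, all still called lower at day 5 and highest at day 4. Those regaining day 1, 47, became 86 with the deposited TPM, 8 with a pseudocount of 5, 4 at 8-fold, 420 by contig and 84 with no limit on the distance. Of the alternatives for these values, 40 were labelled close to those reported and 30 moved, but the label close allowed wide shifts. Components lower at day 5, 263 with TMM, became 368 with DESeq2 size factors, 373 with TPM and 181 with library totals, all labelled close. An alternative for the 47 left out a set with days 1, 2.5 and 5 over days 2, 3 and 4. That set held 0 compared components, so the 47 could not change. The tally is thus not read as a measure of stability. Leaving out the 130 components low at day 4 and the 59 that fell back, chosen after seeing the data, gave 280 higher and 204 lower. No fold of the 4 named contigs' components changed sign under the scalings and pseudocount tried. A pseudocount added to both libraries cannot change a sign, and these folds were large, so this is not read as stability. Of the alternatives for these folds, 10 were labelled close and 10 moved. The largest shift was in the log2 fold of lcl|comp90884_c0_seq1, from -4.87 to -2.39 with a pseudocount of 5. Counts under 3 could not show absence.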

Other observations

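Components counted mainly in 1 library were more frequent at day 5 than at day 4. Of the 31146 compared components, 1086 had 50% or more of their summed CPM at day 5 and 639 had it at day 4. Over days 1, 2, 2.5 and 3, in order, the numbers were 601, 72, 305 and 231. A share of 90% or more was reached by 15 components at day 5 and 6 at day 4. Days 1 and 5 are the ends of the series, with a neighbouring library on 1 side only.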
